A study of Mus musculus with 20 samples.

Results

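The motile cilium genes of the mouse habenula series are the 63 genes, of 37994 in the stage tables and 36104 in the tables of left and right habenula, whose symbols mark them as axonemal dynein chains (Dnah, Dnaic), cilia and flagella associated proteins (Cfap), radial spoke proteins (Rsph) or nexin-dynein regulatory complex proteins (Drc), together with 8 genes chosen by name: Foxj1, Mcidas, Ak7, 1500015O10Rik, Tmem212, Spag6l, Spag17 and Hydin. All 63 were found in both sets of tables. The rule uses names, not measured values, though it was written with earlier results of these data known. Transcripts were counted in single cells placed in the wells of 384-well plates with Cel-seq2, which tags each molecule with a unique molecular identifier (UMI). The stage series came from Brn3a-tauLacZ mice, a line with a LacZ reporter at Brn3a (now Pou4f1). It held 1 plate at E12 and 2 at every other stage, which were E11, E13, E15 and E18 before birth and P4, P7 and adult after it. C57BL/6 mice gave a further 5 plates, all at E18: 2 of the left habenula, 2 of the right and 1 of both sides. The labels name no treatment for any group. Neither the sort gate, the genotype at the reporter, the sex of the mice nor whether the plates of a group held separate animals is stated in the labels. The p-values therefore measure the spread between plates, which may be technical.

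The habenula is a paired epithalamic nucleus that borders the roof of the third ventricle. The ventricle is lined by ependymal cells, whose beating cilia move cerebrospinal fluid, and the choroid plexus and the subcommissural organ lie close by. A motile cilium is built on an axoneme of microtubule doublets around a central pair. Outer and inner dynein arms pull the doublets past each other, radial spokes and the nexin-dynein regulatory complex control the pull, and proteins inside the tubules stiffen them. The forkhead factor Foxj1 and the factors of the Rfx family switch on most genes of the motile axoneme. Mcidas, also called multicilin, acts above Foxj1 with Gmnc and the E2f factors in cells that form many cilia, and Ccno, Deup1, Cdc20b and Myb serve the amplification of their centrioles. Neurons have a primary cilium, which needs intraflagellar transport but has no dynein arms.

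The upstream sequences of the 5 cilium genes with the highest log2 fold changes between wells with and without Foxj1 in the stage series are shown here, since Rfx factors are known to bind an X-box and forkhead factors a short core; binding was not measured. The 100 bases are from RefSeq (GRCm38.p6), 5′ to 3′ on the gene's strand, and capitals mark matches to GTTGCC, 1 arm of the X-box and called the X-box core here, or to the forkhead core TAAACA, each on either strand. Each run ends at the base before the RefSeq start, except that it ends 31 bases earlier for Cfap161 and 58 earlier for Cfap126, where an annotated gene model starts upstream. The last bases of a run, at most 10, can lie inside the annotated gene model.
Cfap161, chr7:83794871-83794970, minus strand: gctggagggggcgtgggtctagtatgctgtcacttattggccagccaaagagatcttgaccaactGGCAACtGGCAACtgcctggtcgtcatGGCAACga
Tmem212, chr3:27896369-27896468, minus strand: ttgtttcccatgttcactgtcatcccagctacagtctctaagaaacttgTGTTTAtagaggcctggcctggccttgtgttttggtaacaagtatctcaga
Cfap52, chr11:67965643-67965742, minus strand: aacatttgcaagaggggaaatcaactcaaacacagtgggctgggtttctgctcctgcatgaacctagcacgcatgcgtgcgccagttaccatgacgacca
Cfap221, chr1:119997233-119997332, minus strand: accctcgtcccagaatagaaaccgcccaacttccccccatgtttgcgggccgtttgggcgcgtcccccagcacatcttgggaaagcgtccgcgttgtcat
Cfap126, chr1:171113828-171113927, plus strand: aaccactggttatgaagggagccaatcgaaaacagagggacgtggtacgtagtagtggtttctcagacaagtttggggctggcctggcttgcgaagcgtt

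The run of Cfap161 holds 3 X-box cores, each as the reverse complement GGCAAC, at 66 to 61, 59 to 54 and 39 to 34 bases before the RefSeq start. Tmem212 holds the forkhead core as its reverse complement TGTTTA, 51 to 46 bases before the start. The runs of Cfap52, Cfap221 and Cfap126 hold no match. The match of Cfap161 nearest the start lies inside its annotated gene model, which begins at base 83794880 of chr7 on the minus strand. Over the 250 bases before each RefSeq start, on both strands, the X-box core was present at 14 of the 50 cilium genes that matched the table (28%), against 11.8% of 27025 genes. The longer core GTTGCCA was present at 9 (18%), against 4.19%. The forkhead core was present at 10 (20%), against 13.5%. The longer core contains the shorter, and a match is a description of letters. Foxj1 (chr11:116330704-116335399, minus strand, GRCm38) is named without its promoter.

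Summed over the 63 genes, the cilium transcripts were a small and uneven part of the habenula plates. Levels are given as CPM, the counts of a gene scaled to a common total for each plate. Plates 1 and 2 had 371 and 375 CPM at E11, 449 and 1079 at E13, 507 and 465 at E15, and 2292 and 619 at E18, and the E12 plate had 374. After birth the pairs were 552 and 503 (P4), 635 and 741 (P7) and 712 and 1105 (adult). The C57BL/6 plates had 603 and 785 for the left habenula, 660 and 699 for the right, and 1093 for both sides together. Dnah7c, Cfap20, Cfap36 and Cfap97 weigh heavily in these sums, with the highest means over all plates (105, 73.1, 61.2 and 29.6 CPM). None of them was called in the Foxj1 comparison of the series below, so a sum is not a measure of motile cilia alone. The 2 plates of a stage were close to each other at E11, E15, P4 and P7, and far apart at E13, E18 and adult, where plate 2, plate 1 and plate 2 in turn stood above their partner. Adult plate 1 was poor, with 56 of 384 wells kept, against 342 on adult plate 2. Its kept wells had medians of 5058 counts and 11.9% mitochondrial counts, against 11303 and 5.33%. The mean at E18 was 1455 CPM ± 1182 (SD, n = 2) and at E13 764 ± 445 (n = 2), against 373 ± 2.54 at E11 (n = 2). Of the 63 genes, 48 had their highest level of the series on E18 plate 1, 6 on adult plate 2 and 4 on E13 plate 2. Among the E18 plates of C57BL/6 mice, 44 were highest on the plate of both sides. The share of all genes that were highest on these plates was not counted, so the counts are not read as particular to cilium genes. In such sums, fewer cells of a type and less RNA per cell cannot be told apart.

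The plates that stood apart also differed in the rest of their cells. Of the wells kept, those with at least 2 UMIs of Pou4f1, the factor that marks habenular neurons, were 47 of 137 on E13 plate 2 against 88 of 153 on plate 1, and 49 of 267 on E18 plate 1 against 90 of 110 on plate 2. Adult plate 2 went the other way, with 163 of 342 against 13 of 56 on plate 1. The plate of both sides had 130 of 333, the left plates 179 of 283 and 32 of 54, and the right plates 203 of 279 and 85 of 133. All 10 neuron markers had counts on every plate, and at E18 they summed to 3379 CPM on plate 1 against 8096 on plate 2. The 10 radial glia and progenitor markers summed to 4469 and 297 CPM on those plates, with 2 of the 10 at 0 on plate 2. The 10 choroid plexus markers summed to 4120 CPM on E13 plate 2 and 178 on plate 1, with 1 and 2 of them at 0, and the 5 subcommissural organ markers to 326 CPM on adult plate 2 and 32 on plate 1, with none and 2 at 0. The 12 ependymal markers, 8 of which also stand in the other cilium lists used here, summed to 674 and 127 CPM at E18. The part of these cell types in the plate differences was not tested.

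**Figure D1:**
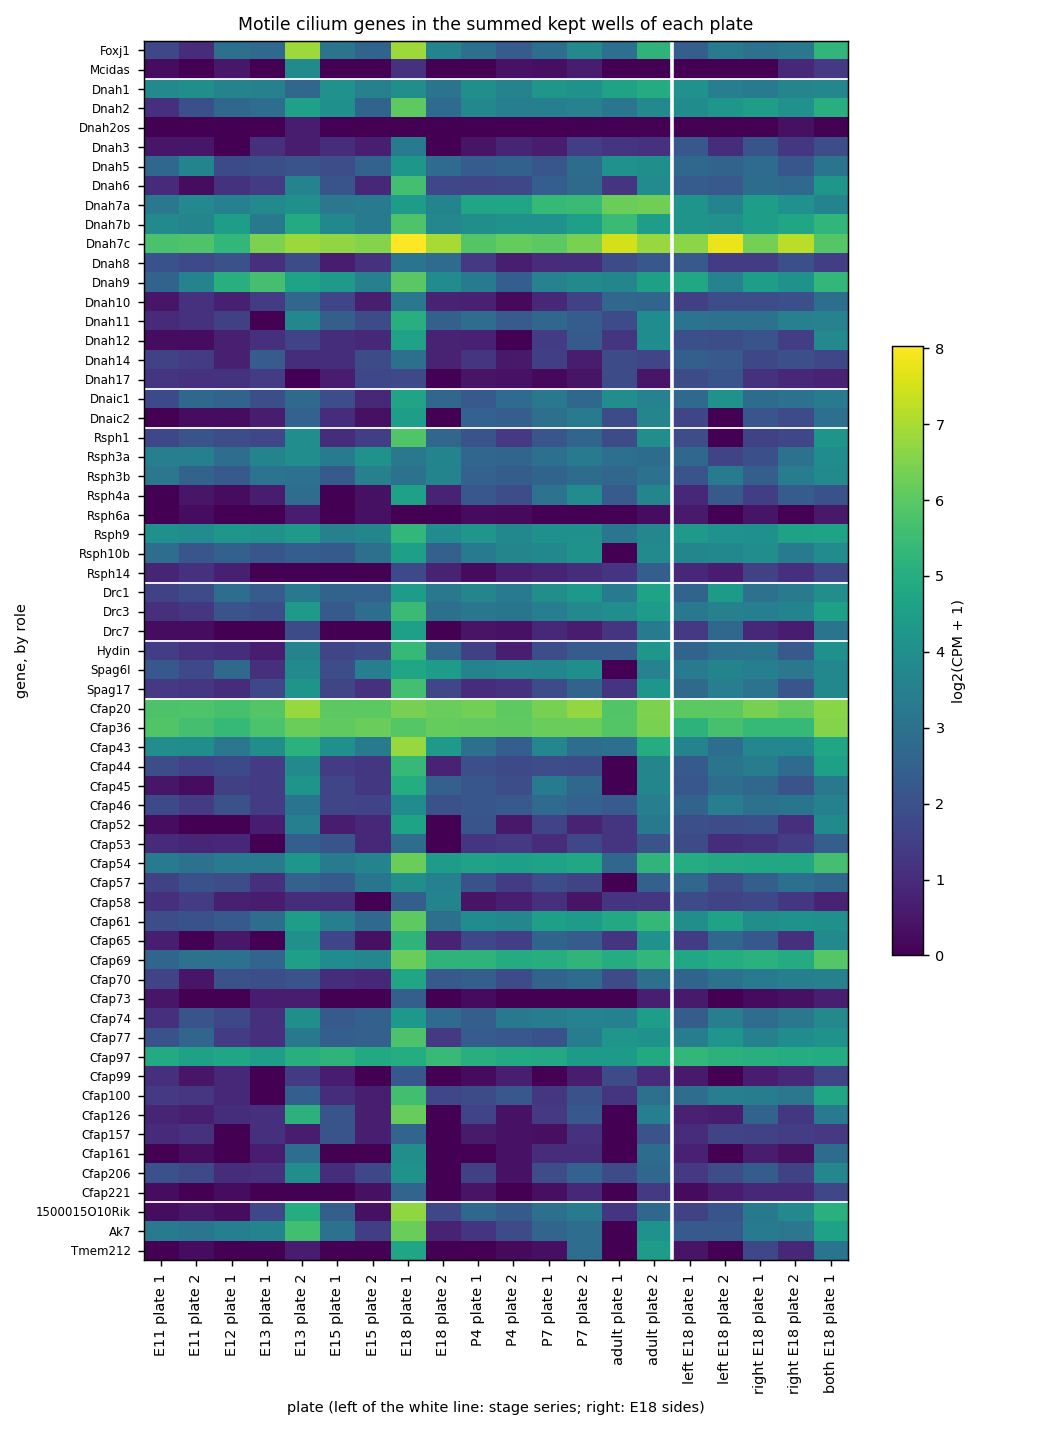
Level of each of the 63 cilium genes (rows, by role) on each of the 20 plates (columns), as log2(CPM + 1) of the summed kept wells, with the stage series left of the white vertical line. The columns of E13 plate 2, E18 plate 1, adult plate 2 and the plate of both sides are brighter than their neighbours for most rows, and Cfap20, Cfap36, Cfap97 and Dnah7c are bright in every column.

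The 2 regulators among the members differed between plates. Foxj1 reached 116 CPM on E18 plate 1 and 115 on E13 plate 2, against 11.3 and 5.68 on their partners. Adult plate 2 had 36.0 and adult plate 1 6.59. The remaining stage plates lay low, with 2.32 and 1.02 CPM at E11, 6.74 at E12, 7.60 and 5.05 at E15, 6.78 and 3.99 at P4 and 6.45 and 12.9 at P7. In C57BL/6 mice the plate of both sides had 38.2 CPM, the left plates 4.39 and 9.20, and the right plates 7.06 and 8.36. Mcidas was at 13.3 CPM on E13 plate 2, at 1.52 on the plate of both sides, at 1.20 on E18 plate 1, and between 0 and 0.865 on the other 17 plates. E13 plate 2 and E18 plate 1 thus had about equal Foxj1 and unequal Mcidas.

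Ak7, an adenylate kinase of the axoneme, was at 47.4 CPM on E13 plate 2, 74.4 on E18 plate 1, 16.3 on adult plate 2 and 23.1 on the plate of both sides. Elsewhere Ak7 lay between 0 and 11.4 CPM, and the E11 and E12 plates, at 7.97 to 10.1, were above the P4 plates, at 1.36 and 2.61. Tmem212, a membrane protein used as an ependymal marker, was at 25.6 CPM on E18 plate 1, 20.9 on adult plate 2, 7.76 on the plate of both sides and 6.35 on P7 plate 2, but at 0.531 on E13 plate 2. 1500015O10Rik, which encodes the secreted peptide augurin, was at 102 CPM on E18 plate 1, 33.1 on the plate of both sides and 30.3 on E13 plate 2, and at 5.37 on adult plate 2. The 3 genes therefore ordered these plates differently, and Tmem212 was low where Mcidas was highest.

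Hydin, a large protein of the central pair, was at 40.3 CPM on E18 plate 1, 17.9 on adult plate 2, 15.4 on the plate of both sides and 11.2 on E13 plate 2, and between 0.568 and 7.61 on the other 16. Dnah12, an inner arm heavy chain, was at 23.6 CPM on E18 plate 1, 13.9 on adult plate 2 and 12.8 on the plate of both sides, but at 2.12 on E13 plate 2. Spag6l, another central pair gene, was less tied to those plates: it was at 25.9 CPM on E18 plate 1, 20.3 on E18 plate 2 and between 10.9 and 15.1 on the 4 plates of P4 and P7 and on adult plate 2. It was listed at 0 on adult plate 1, where 3 counts would be 3.95 CPM.

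A further set of members was present on every plate. Cfap20, a protein of the inner junction of the doublet, ranged from 50.6 to 109 CPM over the series, Cfap36 from 40.6 to 83.9, Cfap97 from 19.7 to 42.2 and the radial spoke gene Rsph9 from 7.91 to 38.7. After thinning of each well to 2000 UMIs, between 8.80% and 20.2% of wells held a Cfap20 UMI on the 20 plates. The inner arm gene Dnah7a had 8.31 and 12.7 CPM at E11, 26.0 and 25.5 at P4, then 41.1 and 43.3 (P7) and 73.9 and 77.2 (adult). The plates of these stages did not overlap, but neither step after P4 was called, and how many of all genes rose in this way was not counted. Dnah1, also an inner arm gene, was highest on the adult plates too, at 23.7 and 29.8 CPM. Dnah7c ranged from 39.0 to 261 CPM. Dnah7a, Dnah7b and Dnah7c are near-identical copies on chromosome 1, so how the counting split reads among them leaves the level of each uncertain, and the same holds for Rsph3a and Rsph3b and for Spag6l with its parent gene.

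Wells with Foxj1 were rare outside the same 4 plates. At least 1 Foxj1 UMI was found in 26 of 137 kept wells on E13 plate 2 (19.0%, exact 95% interval 12.8 to 26.6), 72 of 267 on E18 plate 1 (27.0%, 21.7 to 32.7), 40 of 342 on adult plate 2 (11.7%, 8.49 to 15.6) and 59 of 333 on the plate of both sides (17.7%, 13.8 to 22.3). The other 16 plates lay between 1.45% and 11.1%. With every well thinned to 2000 UMIs, which left out 2 to 19 shallower wells a plate, the 4 plates had 8.53%, 13.4%, 5.20% and 5.49%, and the other 16 had 0 to 2.5%. These shares rest on 1 random draw. A second draw, used for the thinned fit below, gave 4 Foxj1-positive wells in place of 2 on E18 plate 2, above that range. It gave 23 in place of 18 on the plate of both sides, and 0 in place of 5 on E11 plate 1. The intervals cover counting error only.

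Wells with at least 2 Pou4f1 UMIs served as the background, since habenular neurons are not multiciliated. On the plate of both sides 6.92% of these wells and 24.6% of the other wells held a Foxj1 UMI, with median depths of 23993 and 15414 counts, and on adult plate 2 8.59% and 14.5%, with median depths of 23395 and 5515. On E18 plate 1 the shares were 18.4% and 28.9%, and after thinning 8.16% and 14.6%. On E13 plate 2 they were 19.1% and 18.9% at full depth, and 4.35% and 10.8% after thinning. On 9 of the other 16 plates the share in the Pou4f1 wells at full depth was above that in the other wells, and no Foxj1 expression is read from the share of wells with a UMI there. P7 plate 2 is 1 of these 9 plates (9.36% and 6.78%), and its highest well held 31 Foxj1 UMIs.

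The number of Foxj1 UMIs in a well separated the other 62 cilium genes. On E18 plate 1 these 62 genes summed to 997 CPM in wells without Foxj1, 1834 in wells with 1 UMI and 6395 in wells with 2 or more. The matching values were 574, 508 and 5557 on E13 plate 2, 722, 788 and 9652 on adult plate 2, and 615, 987 and 5385 on the plate of both sides. The wells with 1 UMI on E13 plate 2 and adult plate 2 were thus near the wells with none, and the wells with 2 or more were several times higher. At P7 the wells with 2 or more UMIs reached 3701 and 2779 CPM, on right plate 1 11385 (4 wells), and on E18 plate 2 366 (3 wells), below the 622 of the wells without Foxj1 there.

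Foxj1-positive wells held 55.1% of all counts of the other 62 genes on E13 plate 2, 68.2% on E18 plate 1, 40.4% on adult plate 2 and 50.3% on the plate of both sides. They held 24.7%, 30.6%, 11.8% and 14.8% of all counts there. Counted the other way, wells in which the 62 genes reached 5000 CPM numbered 24 on E18 plate 1, of which 21 held Foxj1, 18 on adult plate 2 (16 with Foxj1), 10 on the plate of both sides (10), 8 on E13 plate 2 (6) and 5 and 3 at P7 (5 and 2). Left plate 1 had 7 such wells and none held Foxj1. On the other plates with such wells, Foxj1 was held by 2 of 4 on right plate 1, 1 of 3 on P4 plate 2, 1 of 1 on P4 plate 1, 0 of 3 on right plate 2, 0 of 2 on E13 plate 1, and 0 of 1 on left plate 2 and on E15 plate 1. The median number of the 62 genes found in such wells was 27 to 38 on the 4 plates with the highest Foxj1 shares. It was 26.5 to 43 on right plate 1, on P4 plate 1 and at P7. On E13 plate 1 and on E15 plate 1 it was 3, and on P4 plate 2 it was 6. Left plate 2, right plate 2 and left plate 1 had 10, 12 and 13, so wells there passed the limit with fewer cilium genes. The limit of 5000 CPM was set after the values had been seen.

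**Figure D2:**
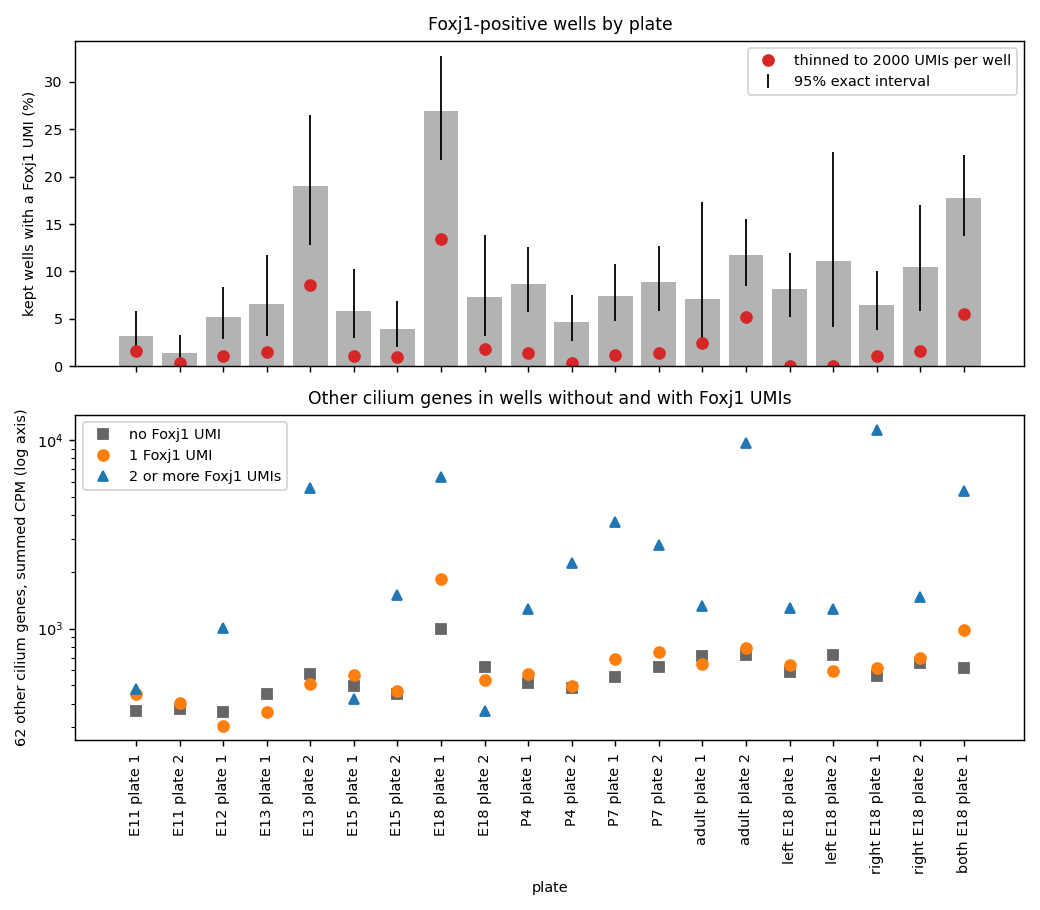
Top: percent of kept wells with at least 1 Foxj1 UMI on each plate (bars, with exact 95% intervals) and after thinning to 2000 UMIs per well (red points). Bottom: summed CPM of the other 62 cilium genes, on a log axis, in wells with 0, 1 and 2 or more Foxj1 UMIs, where the wells with 2 or more reach 5385 to 9652 CPM on the plates with most Foxj1-positive wells.

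Across the 14 series plates with at least 5 Foxj1-positive wells, most cilium genes were higher in the Foxj1-positive wells of a plate than in its other wells. Single plates differed: the sum of the 62 other genes was lower in the Foxj1-positive wells of E13 plate 1 (360 against 450 CPM) and E18 plate 2 (437 against 622). Of the 62 genes other than Foxj1, 53 passed the filter on low counts, 41 of them were higher at an adjusted p under 0.05 (edgeR's quasi-likelihood test on plate sums, Benjamini-Hochberg adjustment, plate as block) and 0 were lower. Of all 14187 genes tested, 2.60% were called higher and 2.30% lower. The median log2 fold change was 1.76 over the 53 and -0.11 over all genes. RLE scaling in place of TMM moved the median of all genes to 0.01 and the calls over all genes from 369 higher and 327 lower to 448 and 86 (3.16% and 0.606%); with it 43 of the 53 were higher and 0 lower. DESeq2 called 316 genes higher and 22 lower (2.23% and 0.155%), with 34 of the 53 higher and 0 lower. With no filter on low counts, 46 of 62 were higher, against 1.40% of all genes. On the 5 plates of left and right habenula, 49 of the 62 passed the filter, 14 were higher and 0 lower, with a median of 1.75, against 3.20% of 12905 genes higher and 0.542% lower, and 31 of 62 were higher with no filter, against 1.71%.

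The counts rest on few plates. Without E13 plate 2, E18 plate 1 and adult plate 2 the series gave 11 of 43 tested genes higher, against 0.829% of all genes. The median log2 fold change of the 43 was 0.93. Without E18 plate 1 alone it gave 24 (against 1.62%), and without adult plate 2 alone 27 (against 1.90%). Without the plate of both sides the left and right set gave 3 (against 1.36%), and without right plate 1 it gave 4 (against 1.99%). The median log2 fold change of the members tested was then 0.98 and 1.40, in place of 1.75. Foxj1-positive wells had more counts than other wells on some plates, with medians of 28045 and 16272 on P7 plate 2 and 72787 and 26659 on left plate 2. They had fewer on others, with 15947 and 20783 on the plate of both sides. In the series thinned to 2000 UMIs a well, 32 of 43 genes were higher, against 2.74% of all genes, with a median log2 fold change of 2.92 over the 43. The left and right set could not be thinned in this way. The thinned fit held 80 Foxj1-positive wells on 6 plates, E13 plate 2, E18 plate 1 and adult plate 2 among them, in place of 299 wells on 14 plates.

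By role, the median log2 fold change in the series was 2.24 over the 14 tested members with no role assigned here, 2.01 over tubule inner genes, 1.72 over the nexin-dynein regulatory complex, 1.66 over the central pair, 1.5 and 1.41 over outer and inner dynein arms and 0.73 over radial spokes. The members with the highest values were Cfap161, Tmem212 and Cfap52, whose folds rest on few UMIs in the Foxj1-negative wells of the series: 7 against 91 in the positive wells for Cfap161, 20 against 190 for Tmem212 and 26 against 146 for Cfap52. Cfap161, a protein inside the doublet tubules, was at 25.9 CPM in the Foxj1-positive wells of E13 plate 2, 46.9 on E18 plate 1, 37.0 on the plate of both sides and 50.5 on adult plate 2, against 0 to 0.891 CPM in their other wells. The series fit gave Cfap161 a log2 fold change of 5.28 (SE 0.62, adjusted p = 5.35e-06). Cfap161 was picked for this fold, so the gap between the classes on these 4 plates adds no support to it. Cfap52, of the same group, was at 38.8, 74.3, 63.9 and 81.3 CPM in the positive wells of those plates and at 0.705 to 2.30 in the others. Its log2 fold change was 4.66 in the series (SE 0.46, adjusted p = 2.73e-07) and 4.71 in the left and right set (SE 0.72, adjusted p = 0.00295). Of the 7 tubule inner genes, 6 of 7 tested rose in the series, Cfap126 and Cfap77 among them by 3.70 and 2.01, and Cfap20 had a value of 0.25 (adjusted p = 0.296).

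All 9 central pair genes rose in the series, with a median of 1.66. Cfap221 was at 3.88, Spag17 at 3.17, Hydin at 2.53, Cfap70 at 2.21, Cfap54 at 1.44, Spag6l at 1.40 and Cfap69 at 1.32. Spag17 was at 142 CPM in positive and 7.48 in negative wells of E18 plate 1, 133 and 2.03 on adult plate 2, 53.9 and 4.93 on E13 plate 2, and 70.1 and 2.32 on the plate of both sides. The left and right set called 4 of 8 tested central pair genes higher, Cfap74 at 2.16, Cfap46 at 2.10, Cfap54 at 1.77 and Cfap69 at 1.22. Of the 63 members, 36 overlap an annotated gene on the opposite strand, among them Hydin, Spag17, Cfap221, Cfap70 and Cfap74 here, and 12 overlap one on the same strand, such as Cfap43 and Itprip. Whether counting used strand is not given, so these counts are uncertain to that extent.

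Dynein arm genes were called in part. Of the 10 inner arm heavy chains, 9 were tested and 6 rose in the series: Dnah12 by 3.47, Dnah6 by 3.31, Dnah3 by 2.54, Dnah10 by 2.34, Dnah2 by 1.41 and Dnah7b by 0.85. Dnah1 (0.66), Dnah7a (0.44) and Dnah7c (-0.26) did not pass. Dnah7c, which had counts on every plate, was at 282 CPM in positive and 252 in negative wells of E18 plate 1, and at 73.2 and 126 on E13 plate 2. Of the 7 outer arm genes, 5 were tested and 4 rose, Dnah11 by 2.00, Dnaic2 by 1.76, Dnah9 by 1.5 and Dnaic1 by 1.36, while Dnah5 had 1.43 (adjusted p = 0.0691). In the left and right set Dnah9 alone of the dynein chains was called, at 1.64 (SE 0.39, adjusted p = 0.0391); 9 inner arm genes were tested there and 0 called.

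Of the 6 radial spoke genes tested, 2 were called. Rsph1, a spoke head protein, rose by 2.81 (SE 0.39, adjusted p = 1.57e-05) and Rsph4a by 1.94, while Rsph9, Rsph3a, Rsph3b and Rsph10b had 0.48, -0.26, 0.28 and 0.98 with no call. All 3 genes of the nexin-dynein regulatory complex rose, Drc7 by 3.64, Drc3 by 1.72 and Drc1 by 1.13, and Drc7 and Drc3 were also called in the left and right set, at 3.11 and 1.68. Among the remaining members Tmem212 rose by 5.01 (SE 0.71, adjusted p = 5.60e-05), Cfap65 by 3.66, Ak7 by 3.34, 1500015O10Rik by 3.05, Cfap206 by 2.71, Cfap44 by 2.37, Cfap100 by 2.36, Cfap43 by 2.06 and Cfap61 by 1.06. The left and right set called Cfap126 at 4.40, Cfap65 at 3.48, Cfap100 at 3.20, Cfap44 at 2.92, 1500015O10Rik at 2.91 and Cfap43 at 1.87, and left Tmem212 at 4.70 (adjusted p = 0.0628) and Ak7 at 3.03 (adjusted p = 0.057) without a call. 1500015O10Rik was also high in the negative wells of E18 plate 1, at 81.9 CPM against 147 in the positive wells. Cfap36 (0.09) and Cfap97 (0.01) had about equal levels in both classes of the series.

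**Figure D3:**
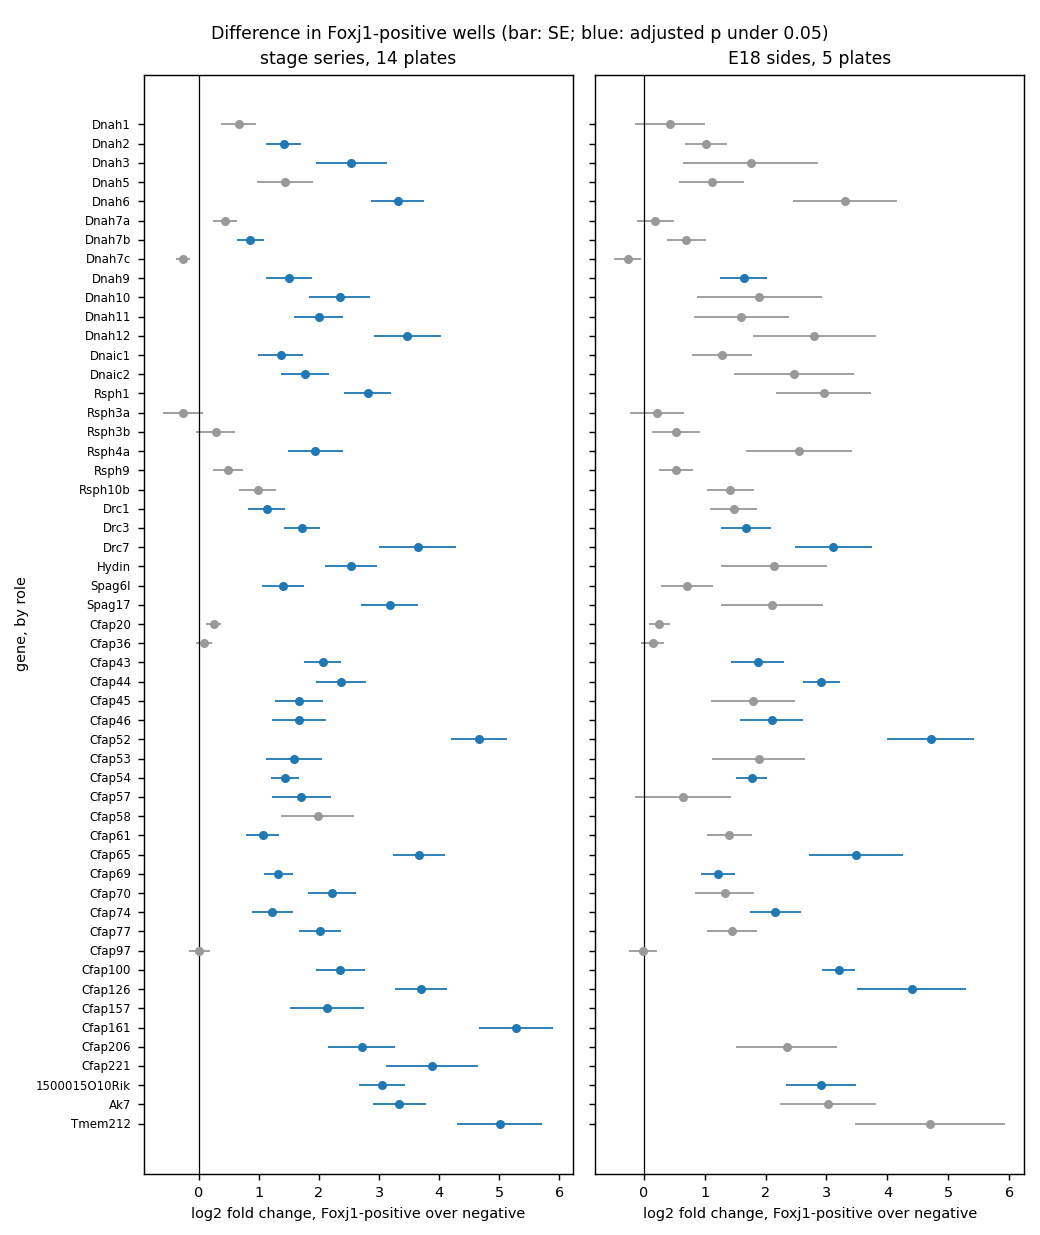
Log2 fold change of each tested cilium gene (rows, by role) between Foxj1-positive and Foxj1-negative wells of the same plates, with its SE, in the series (left, 14 plates) and the left and right set (right, 5 plates); blue points passed an adjusted p of 0.05. The 41 blue points of the series all lie right of 0, and Cfap20, Cfap36, Cfap97, Dnah7c and the Rsph3 genes lie near it.

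Other genes of the motile cilium moved with the members. The lists were read by their counts and medians beside the 2.60% of all genes called higher. Of the central pair, spoke and tubule inner genes outside the members, 34 of 45 tested were higher in the series (median 2.09), led by Sntn at 5.22, Odf3b at 5.20, 1700012B09Rik at 4.88, 1700001C02Rik at 4.79 and Nme9 at 4.31. Docking, ruler and light chain genes were higher in 15 of 22 (median 1.75), with Tctex1d4 at 4.78, Dynlrb2 at 4.07, Dnali1 at 4.05, Wdr63 at 3.90 and Iqca at 3.10. Cytoplasmic assembly factors of the dynein arms were higher in 6 of 14 (median 0.94), with Daw1 at 3.93, Dnaaf1 at 3.61, Dnaaf3 at 2.84, Zmynd10 at 2.80 and Lrrc6 at 1.94. The left and right set called 13 of 39, 6 of 19 and 2 of 10 of these lists higher and 0 lower.

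Regulators of multiciliation were higher in 8 of 15 tested in the series (median 1.29), Cdc20b at 4.52, Deup1 at 4.43, Ccno at 4.15, Gmnc at 2.98 and Myb at 2.81. In the left and right set 2 of 11 were higher, Rfx4 at 1.73 and E2f5 at 0.86. Intraflagellar transport genes, which primary cilia also need, were higher in 3 of 35 in the series (median 0.19), Ttc30b at 0.91, Ift88 at 0.61 and Ift80 at 0.61, and in 1 of 35 in the left and right set, Ttc30b at 1.02, a share near the 3.20% of all genes called higher there.

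Markers of several cell types moved with Foxj1. All 12 ependymal markers were higher in the series (median 2.09), Ccdc153 at 4.78, Dynlrb2 at 4.07, Tekt4 at 3.52, Pifo at 3.35 and Calml4 at 3.19. In the left and right set 4 of 11 were higher, Rarres2 at 5.45 among them. Of the 12 markers, 8 also stand in the cilium lists above, so these counts in part repeat theirs. DESeq2 called 9 of 12 higher in the series and 6 of 11 in the left and right set. Of the radial glia and progenitor markers, 5 of 10 were higher in the series (Hes1 at 1.70, Fabp7 at 1.40, Sox9 at 1.33, Vim at 0.81, Sox2 at 0.59) and 6 of 10 in the left and right set. In the series DESeq2 called 2 of 10 of them, RLE scaling 5 of 10 and the thinned fit 2 of 7. In the left and right set DESeq2 called 6 of 10. Astrocyte markers were called higher in 3 of 8, Aldh1l1 at 2.14, Aqp4 at 1.73 and Aldoc at 1.58, and lower for Gjb6, at -3.97; the left and right set called 4 of 6 higher. The signs of Aldh1l1, Aqp4 and Aldoc turned in the thinned fit, which also held fewer plates, and that of Gjb6 with DESeq2. The choroid plexus list had 1 of 6 higher in the series, Ttr at 3.29, and the subcommissural organ list 2 of 4, Sspo at 4.51 and Spdef at 2.56. For the choroid plexus list the thinned series fit called 0 of 4, RLE scaling 2 of 6 and DESeq2 3 of 6. The left and right set called 0 of 4 of them (median 0.18).

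Most lower calls among cell type markers came from the vascular, neuron and microglia lists and, in the left and right set, from the erythroid list. Neuron markers were lower in 3 of 10 in the series, Dcx at -0.42, Elavl4 at -0.37 and Stmn2 at -0.29, and 1 of 10 in the left and right set. With RLE scaling these 3 had -0.27, -0.22 and -0.15 and none was called. Vascular markers were lower in 7 of 10, with Col1a1 at -2.66, and microglia markers in 3 of 5, with C1qb at -2.96. RLE scaling gave 6 of 10 and 2 of 5, and DESeq2 called 0 of the neuron, vascular and microglia markers lower in the series. In the left and right set DESeq2 called 2 of 10 neuron markers lower. The thinned series fit went the other way for neurons, with 7 of 9 markers lower, and had 3 of 6 vascular markers lower. There 349 of all 7400 genes were called lower. Of 52 genes named from all the other lists in the series, 25 lost their call with DESeq2 and 1 changed sign. The oligodendrocyte list had Olig1 higher at 0.91, a sign that turned in the thinned fit, and Pdgfra lower at -1.37, and the 1 pineal marker tested had 0.57 with no call. In the left and right set 5 of 5 erythroid markers were lower, Hbb-bt at -4.93, and 1 of 3 vascular markers higher. DESeq2 called 3 of the 5 erythroid markers lower there. The part of each of these lists in the differences of the cilium genes was not tested.

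Wells with 2 or more Foxj1 UMIs had different companion genes on different plates, also on plates of one stage. On 8 plates there were at least 5 such wells: 9 on E13 plate 2, 44 on E18 plate 1, 8 on P4 plate 1, 8 and 9 at P7, 19 on adult plate 2, 5 on right plate 2 and 34 on the plate of both sides. These are single plates, so the values that follow are a description with no test. On E13 plate 2 Mcidas was at 159 CPM in the 9 wells (exact Poisson interval 102 to 236, from 24 counts in 5 wells), against 3.95 on E18 plate 1, 12.8 and 12.9 at P7, 13.9 on the plate of both sides and 0 on adult plate 2, where 3 counts would be 15.6 CPM. The 3 counts or fewer on E18 plate 1 and at P7 came from 1 well on each plate.

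The same E13 wells had the other early genes. Gmnc was at 271 CPM on E13 plate 2, 1.97 on E18 plate 1, 45.0 on P7 plate 1, 26.0 on adult plate 2 and 0 on the plate of both sides. Ccno was at 636, 9.86, 135, 0 and 17.4 CPM on those plates in turn, and Deup1 at 463, 25.7, 206, 15.6 and 46.9. Cdc20b was at 390 CPM on E13 plate 2, 197 on the plate of both sides and 7.89 on E18 plate 1, and Myb at 211, 27.8 and 33.6. On E13 plate 2 each of these 5 genes was found in 6 of the 9 wells. P7 plate 1 came next for Gmnc, Ccno and Deup1.

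Another 4 genes, picked after their values had been seen, were ordered the other way. Tmem212 was at 0 in the 9 wells of E13 plate 2, which allows up to 19.8 CPM at 3 counts, and was at 111 CPM on E18 plate 1, 151 on P7 plate 2, 85.2 on the plate of both sides and 484 on adult plate 2, where 9 of 19 wells held it. Dnah12 was at 6.60 CPM on E13 plate 2, 96.7 on E18 plate 1 and 296 on adult plate 2, and Ccdc153, an ependymal marker, at 6.60, 96.8 and 343. Rarres2, which encodes the secreted protein chemerin, was at 0, 53.3 and 390 CPM on the same plates and at 169 on the plate of both sides. Over these 3 plates all 4 genes were highest in the adult wells and lowest in the E13 wells. Other cilium genes did not follow that order: Ak7 was at 477 CPM on E13 plate 2, 312 on E18 plate 1 and 369 on adult plate 2, and the sum of the 62 genes given above was about as high on E13 plate 2 as on E18 plate 1.

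The neighbouring tissues also differed by plate. In the 9 wells of E13 plate 2 the choroid plexus list summed to 38889 CPM, nearly all of it Ttr, the transthyretin of choroid plexus, at 36899 CPM in 9 of 9 wells, against 865 CPM in the Foxj1-negative wells of that plate. On the other 7 plates the list reached at most 642 CPM. That value, on E18 plate 1, was below the 1721 CPM of the Foxj1-negative wells there. On P4 plate 1 the order was the other way, with 228 CPM against 126. The subcommissural organ list summed to 1563 CPM on E18 plate 1 and 4860 on adult plate 2, where Sspo, the SCO-spondin that forms the fibre of that organ, was at 1206 CPM in 22 of 44 wells and at 4330 in 10 of 19. Sspo was at 0 on E13 plate 2, at 40.0 on the plate of both sides, and at 680 on P4 plate 1, where 1 of 8 wells held all of it. The radial glia and progenitor list summed to 8692 CPM on E18 plate 1 and 7616 on the plate of both sides. Neuron markers summed to 2441 CPM in these wells of E13 plate 2, against 6310 in its Foxj1-negative wells. They summed to 1023 against 4027 CPM on E18 plate 1, and 5690 against 6799 on P4 plate 1. The wells of P4 plate 1 thus kept most of the neuron level of their plate.

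**Figure D4:**
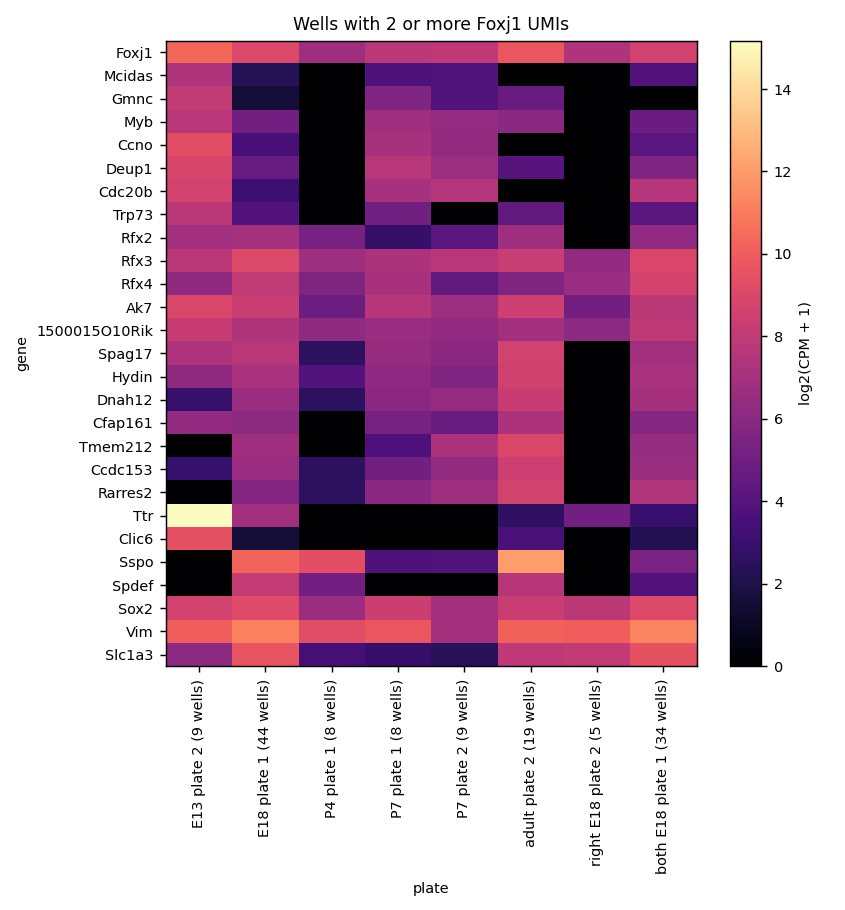
Level, as log2(CPM + 1), of regulators, cilium genes and cell type markers (rows) in the summed wells with 2 or more Foxj1 UMIs, on the 8 plates with at least 5 such wells (columns); the rows were chosen after values had been seen. The E13 column is bright for Mcidas, Gmnc, Ccno and Ttr and black for Tmem212 and Sspo, and the E18 plate 1 and adult plate 2 columns are bright for Sspo, Spdef and Tmem212.

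The tests between successive stages, on the sums of all kept wells, called few cilium genes. The contrasts share plates with their neighbours. Of the 55 members tested, 0 were called from E11 to E13 (against 1.45% of 17453 genes; 17 had an unadjusted p under 0.05, against 17.8%, and DESeq2 called 5, against 5.45%), 0 from E13 to E15 (0.0917%; 1 unadjusted, against 12.5%, and 0 with DESeq2, against 2.55%), 0 from E15 to E18 (0.195%; 36 unadjusted, against 17.2%, and 8 with DESeq2, against 3.84%), 0 from P4 to P7 (0.00573%; 1 unadjusted, against 2.72%, and 0 with DESeq2, against 0.126%) and 0 from P7 to adult (3.58%; 4 unadjusted, against 20.7%, and 1 with DESeq2, against 8.08%). The median log2 fold change of the members was 1.08 from E11 to E13, -0.87 from E13 to E15, 2.11 from E15 to E18, -1.89 from E18 to P4, 0.62 from P4 to P7 and 0.67 from P7 to adult. Of these 6 medians, 5 changed sign or fell close to 0 without 1 plate. Without E13 plate 2 they were -0.07 from E11 to E13 and 0.26 from E13 to E15, without E18 plate 1 0.15 from E15 to E18 and 0.31 from E18 to P4, and without adult plate 2 -0.53 from P7 to adult.

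From E18 to P4 9 members were lower and 1 was higher, against 10.4% and 9.20% of all genes. The 10 of 55 members called either way are near the 19.6% of all genes called. Dnah12 had 23.6 and 0.753 CPM at E18 and 0.678 and 0 at P4 (log2 fold change -4.88, SE 1.39, edgeR adjusted p = 0.0323), and the 2 E18 plates differed more from each other than E18 plate 2 did from P4. Spag17 (-4.22), Hydin (-3.95), Rsph1 (-3.44), Cfap43 (-3.30) and Dnah9 (-2.30) were called as well. Cfap58 had 4.39 and 11.3 CPM at E18 and 0.339 and 0.613 at P4 (-3.71), and Dnah8, a heavy chain known from sperm, 7.58 and 6.03 against 1.53 and 0.614 (-2.44), and Dnah7c was called at -1.36. Both E18 plates were above both P4 plates for all 9, but the 9 were called on these same plates, so this adds no support. How many of all genes separated in this way was not counted. For 6 of the 9 E18 plate 1 was at least 3 times E18 plate 2. Dnah7a rose by 0.90 (SE 0.27, adjusted p = 0.041), a call that was lost in 9 of 13 alternatives, DESeq2, RLE scaling and no filter among them (adjusted p from 0.0361 to 0.187 over the 13). Without E18 plate 1 2 members were called (against 8.51% of all genes), without E18 plate 2 36 (against 28.5%), and without P4 plate 1 or plate 2 0 (against 4.73% and 3.08%). A fit on the plates of the 2 stages alone called 0 (against 3.58%).

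The other cilium lists had few calls from E18 to P4, beside the 10.4% of all genes called lower. Of the central pair, spoke and tubule inner genes 6 of 47 were lower, of docking genes 4 of 22, of assembly factors 2 of 14 and of regulators 1 of 15 (Rfx3 at -1.03), while intraflagellar transport had 3 of 35 higher (Arl6 at 1.45, Kif3a at 1.08, Kifap3 at 0.93) and 1 lower (Ift43 at -1.06). Of the cell type lists, astrocyte markers were lower in 4 of 8 (Slc1a2 at -3.42), radial glia markers in 2 of 10 (Pax6 at -4.25, Nes at -2.58), choroid plexus markers in 2 of 7 (Folr1 at -5.51, Otx2 at -2.16), and the 12 ependymal markers in 0, with a median of -2.70. Of 30 named genes of these lists, 17 lost their call and 5 changed sign without E18 plate 1, Folr1 to 2.66 among them, and 24 and 27 lost it without P4 plate 1 and plate 2. With the plates of the 2 stages alone, 18 of 20 lost it. The part of the cell type lists in the values of the cilium genes was not tested.

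Left and right habenula did not differ detectably in these genes. Foxj1 was at 4.39 and 9.20 CPM on the left and 7.06 and 8.36 on the right, and the groups overlapped. Of 50 members tested 0 were called, as were 0 (0.0%) of all 15489 genes (edgeR; 2 members and 182 genes had an unadjusted p under 0.05, and DESeq2 called 0 members), with a median of 0.08 over the members.

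Many cilium gene UMIs came from unspliced RNA. The deposited tables split each UMI into spliced and unspliced, and on the series plates 41.0% to 63.5% of the members' UMIs were unspliced, against 17.7% to 26.4% over all genes. Dnah7c, a gene of 381885 bases (chr1:46425592-46807476, plus strand, GRCm38), was 97.4% unspliced in Foxj1-positive wells (exact 95% interval 95.8 to 98.6) and 98.2% in the other wells of the series. For several other genes the share was lower where Foxj1 was present: Ak7 was 40.2% unspliced (35.4 to 45.2, of 403 UMIs) in positive and 86.0% (80.8 to 90.2, of 228) in negative wells, Spag17 53.4% and 89.0%, Dnah12 49.3% and 79.5%, and Rsph1 8.50% and 15.5%. The left and right set gave 38.3% and 84.8% for Ak7. Cfap61 went the other way, with 60.3% and 30.5% in the series and 69.6% and 54.5% in the left and right set.

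These shares pool UMIs over plates that give unequal parts of each class, and the intervals cover counting error only. Among genes with at least 20 UMIs in both classes, the unspliced share was lower in Foxj1-positive wells for 45 of 52 in the series (medians 38.9% and 55.4%) and 36 of 46 in the left and right set (38.4% and 57.5%). Over plates, the pooled share of the other 62 genes was 45.1% ± 10.1 in positive and 50.1% ± 4.13 in negative wells of the series (SD, n = 14), a difference of -4.97 points ± 9.75, lower on 9 of 14 plates (exact permutation test of signs within plates, 2-sided, p = 0.0786, 0.236 after adjustment over 6 tests). In the left and right set the difference was -7.79 points ± 3.08 (SD, n = 5), lower on 5 of 5 plates (exact permutation p = 0.0625, the smallest that 5 plates allow). Without Dnah7c the series difference was -1.29 points (exact permutation p = 0.590), and that of the left and right set -2.63 points ± 3.27 (SD, n = 5), lower on 3 of 5 plates (exact permutation p = 0.250). The pooled difference did not pass the test in the series. With 5 plates the left and right set could not pass, as 0.0625 is its smallest possible exact permutation p. No conclusion is drawn from the tests of that set. Dnah7c was almost wholly unspliced in both classes of the series, and the differences of both sets were smaller without it. Why they were smaller was not tested. Over all genes the difference was -0.27 points ± 1.85 in the series, lower on 9 of 14 plates (SD, n = 14). In the left and right set it was 0.21 points ± 2.10, lower on 4 of 5 plates (SD, n = 5). The number of plates with a lower share is thus not particular to the cilium genes. How many of all genes had a lower share, gene by gene, was not counted. These comparisons were added after the data had been examined.

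**Figure D5:**
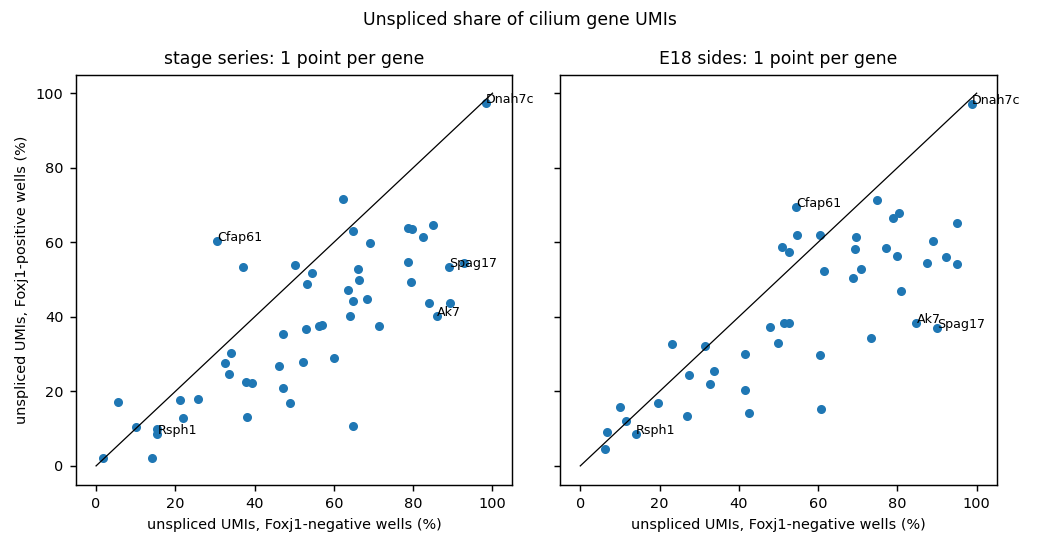
Percent of a gene's UMIs that were unspliced in Foxj1-positive wells (vertical axis) and Foxj1-negative wells (horizontal axis), 1 point per cilium gene with at least 20 UMIs in both classes, in the series (left) and the left and right set (right), with the line of equal shares. Most points lie under the line, 45 of 52 and 36 of 46, with Ak7 and Spag17 far below it, Cfap61 above it and Dnah7c at the upper end on it.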

How the data were processed

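The authors deposited, for the stage series and for the left and right set, tables of total, spliced and unspliced transcripts per gene and well. These deposited values are expected counts, which from the values are UMI numbers corrected for collisions among 4096 possible UMIs. Per the submitters' processing notes, STAR 2.5.3a, Trim Galore and the mm10 build (GRCm38) were used; their settings, the annotation, the counting program and the use of strand are not stated there. Per the labels' protocols 5 plates shared a sequencing run; which ones is not given, so run and stage cannot be told apart. For the plate of both sides the title reads E1 and the other labels E18; the latter was used. Before testing, plate sums of the deposited values were rounded to whole numbers.

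Wells were kept with at most 20% mitochondrial counts, 500 genes or more and 1000 counts or more (spike-ins and mitochondrial genes not counted), which left 3729 of 5756 and 1082 of 1920 wells. No doublet caller was run; wells above 3 times their plate's median were left out in an alternative. Kept wells summed to 758697 (adult plate 1) to 7760372 (P7 plate 1) counts a plate. 0 kept wells had identical values, all 384 well barcodes recur on the plates by design, and replicate plates differed by more than sampling noise. CPM values were computed over all kept wells of a plate, or of a class of wells, without spike-ins and without a correction for gene length, so levels are compared within a gene.

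Plate sums were tested with edgeR 4.0.16 (filterByExpr, TMM, quasi-likelihood test; R 4.3.3, limma 3.58.1), with p-values adjusted over all genes tested at 0.05 by the Benjamini-Hochberg method. Stage contrasts shared one fit of 14 plates; Foxj1-positive wells (at least 1 UMI) were compared with the others of their plate, with the plate as block, on plates with at least 5 of them. SE is the log2 fold change divided by the root of the F statistic. Alternatives were DESeq2 1.42.0, RLE scaling, no filter, recovered UMIs, other well limits, each plate left out, a replicate block, thinning, spliced counts and other limits on Foxj1 wells. Other steps used pandas 2.3.3, scipy 1.17.1, matplotlib 3.10.9 and numpy 2.4.6 with Python 3.11.15.

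Members, lists and roles were chosen with earlier results of these data known. Named are the 8 genes the rule lists, the 20 members with the highest mean CPM, up to 20 members called in each Foxj1 comparison by size of the fold change, every member called between stages, and up to 5 called genes of each other list per comparison; Dnah5, Dnah11, Dnaic1, Dnaic2, Rsph3a, Rsph3b, Rsph4a and Rsph10b were added after their values were seen, as were wells split by UMI number.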

Additional observations from a re-analysis of the deposited data

Results flagged for a closer look

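Wells outside the kept set also held Foxj1. In the series 8 of the 2027 wells left out had at least 1 Foxj1 UMI, and on the plates of left and right habenula 2 of 838 did. Nothing further is read from these counts. Groups had 1 or 2 plates, so none was tested as an outlier within its group.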

How the results depend on the processing

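Counts of called cilium genes depended on the setting as follows. With DESeq2, 5 were called from E11 to E13, 8 from E15 to E18, 16 from E18 to P4 (against 23.4% of all genes) and 1 from P7 to adult. With no filter on low counts the 6 successive stage contrasts gave 17, 9, 31, 27, 1 and 1 (against 4.56%, 3.32%, 3.89%, 12.8%, 0.362% and 4.70% of all genes), and the Foxj1 comparison of the left and right set 31. With only the plates of the 2 stages, E18 to P4 gave 0 and P4 to P7 2 (of 45, against 3.64%). Leaving out each plate in turn gave 0 to 3 from E11 to E13, 0 from E13 to E15, 0 to 31 from E15 to E18 (31 without E18 plate 2, against 10.5% of all genes), 0 to 36 from E18 to P4, 0 from P4 to P7, 0 to 1 from P7 to adult (1 without adult plate 2, against 5.81%), 0 between left and right, 24 to 43 in the Foxj1 comparison of the series and 3 to 17 in that of the left and right set; where a stage kept 1 plate, that plate was taken to vary like the other stages. The 3 from E11 to E13 came without E13 plate 1, which leaves 1 plate at E13, so nothing is read from them. The 43 of the Foxj1 comparison in the series came without E18 plate 2 (against 2.78% of all genes higher). The 17 of the left and right set came without left plate 2 (against 2.86%). At least 2 Foxj1 UMIs gave 50 of 58 in the series, on 6 plates (against 4.78% of all genes higher). In the left and right set that limit gave 23, on 2 plates (against 2.99%). The median log2 fold change of the members tested was 3.70 and 2.91 in these 2 fits. Without E13 plate 2, E18 plate 1 and adult plate 2, chosen after seeing the data, the series gave 11; 9 of the 14 named members still tested passed.

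Replicate numbers did not pair the plates: deviations of same-numbered plates correlated at -0.37 to 0.26 over pairs of stages, and the labels tie no number to an animal or a run. With the number as replicate block the 6 stage contrasts called 0, 0, 0, 9 (against 16.7% of all genes), 0 and 0 members and the left and right comparison 0. With no plate block, the Foxj1 comparisons called 0 (of 13 tested) and 8 (of 26 tested), against 0 of 10261 and 264 of 11247 genes in all; the cause was not tested.

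The summed level in spliced counts alone was 258 CPM at E11, 266 at E12, 309 at E15, 385 at P4, 483 at P7, 569 in the adult, 383 on the left, 415 on the right and 894 on the plate of both sides. Without 1 plate the sum of rounded counts was 371 to 375 CPM at E11, 449 to 1079 at E13, 465 to 507 at E15, 619 to 2291 at E18, 503 to 552 at P4, 635 to 741 at P7, 712 to 1105 in the adult, 603 to 785 on the left and 660 to 699 on the right.

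No cilium gene called in the Foxj1 comparisons (41 and 14) or from E18 to P4 (10) changed sign in the alternatives run. Of those not called, 4 of 12 and 4 of 35 did so in the Foxj1 comparisons, and 33 of 45 from E18 to P4, 32 of them without E18 plate 1. Among the other lists, 5 genes did so from E18 to P4 without E18 plate 1; over the plates left out in turn Dnaaf3 ran from -6.06 to 2.65, Tctex1d1 from -7.36 to 2.66, Folr1 from -8.09 to 2.66, Aldh1l1 from -3.91 to 0.16 and Spdef from -4.99 to 0.22. In the Foxj1 comparison of the series Gjb6 did so with DESeq2 (1.5), and Aldh1l1 (-0.27), Aqp4 (-0.91), Aldoc (-0.61) and Olig1 (-0.47) in the thinned fit, which held 6 of the 14 plates. The causes were not tested. Thinning could not be run for the left and right set, where 1 plate kept enough Foxj1-positive wells. Mcidas passed the filter on low counts in neither Foxj1 comparison, so no test of it was had at this depth.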
